A study of Mus musculus with 26 samples.

Results

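The data compared SCA-1 positive with SCA-1 negative cardiac fibroblasts 14 days after a heart attack model, in 4 of the 26 libraries of the series. They were the day 14 libraries whose titles carry a gate, 2 positive and 2 negative, and the titles give them 2 codes, D1 and D9, each present in both gates. The mice were C57BL/6, of the strain B6.129S4-Pdgfratm11(EGFP)Sor/J, with the genotype PDGFRa H2BEGFP+, in which a nuclear green fluorescent protein reports the Pdgfra locus. All had the left anterior descending (LAD) coronary artery ligated, which kills the muscle that the artery feeds, and their hearts were taken at day 14. Dissociated heart cells without CD45 (leukocytes) and CD31 (endothelium) and with the reporter were sorted, then split by SCA-1. Every group shared the reporter allele, and the reporter rather than Pdgfra protein set the gate. The labels give neither age nor sex, and do not say whether a code is 1 animal or a pool. Undamaged hearts of the same strain and genotype (5 positive and 4 negative libraries) and day 28 hearts after ligation (4 positive and 3 negative) are used for comparison. The fit pairs libraries by code, so only codes present in both gates carry a gate difference and lend spread to the test. Besides D1 and D9 these were F3, A6 and B7 in undamaged hearts and B4 and B6 at day 28.

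SCA-1 is a small lipid-anchored surface protein encoded by Ly6a. In mouse tissues it is used to sort stromal cells with progenitor features, and in connective tissue it is high on cells of the adventitia, the outer sheath of vessels. By day 14 after ligation the injury fibroblasts of the mouse heart have passed their peak of division and are laying down and maturing scar collagen.

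The libraries held 19.8 M (M, mega) gene counts in D1 positive, 19.6 M in D1 negative, 48.8 M in D9 positive and 45.4 M in D9 negative, so the D9 pair was 2.47 times (positive) and 2.32 times (negative) as deep. Reads outside genes were 16.3% of D9 negative and 7.64% to 8.78% of the other three. The Y-linked Ddx3y stood at 102 and 92.8 CPM (read counts divided by the TMM-scaled library size) in D1 positive and negative and at 0 and 0.0771 CPM in D9. Xist, the X-inactivation transcript of female cells, stood at 0.356 and 0.673 CPM in D1 but at 298 and 819 CPM in D9 positive and negative. Sex and pair therefore cannot be told apart, while the 2 gates of a pair match in sex. The defining leukocyte gene Ptprc was at 0.305, 0.673, 0.309 and 0.174 CPM (D1 positive, D1 negative, D9 positive, D9 negative, the order used throughout) and Pecam1, which encodes CD31, at 11.4, 3.99, 5.65 and 6.44 CPM. The summed level of 20 macrophage and myeloid markers was 19.8 to 47.9 CPM. Fibroblast genes were present in all 4: Pdgfra stood at 473, 605, 566 and 371 CPM, and Tcf21, a cardiac fibroblast transcription factor, at 114, 84.6, 185 and 158 CPM.

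The gate was visible at the RNA level. Ly6a stood at 552, 62.8, 472 and 83.3 CPM, so both positive libraries were above both negative ones. The log2 difference, positive minus negative, was 2.82 ± 0.24 (SE, 2 libraries a gate, adjusted p = 3.33e-04 by edgeR's quasi-likelihood test with Benjamini-Hochberg adjustment, the test behind every adjusted p here unless another is named). Each SE comes from this fit, which shares spread over times and genes. It is not the spread between the 2 day 14 pairs, which can differ by more. Ly6a follows the sort and checks the labels. In bulk RNA a lower level can come from fewer cells with a transcript or from less RNA per cell, and these cannot be told apart.

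Of 13812 genes tested, 46 were higher in the positive gate and 14 were lower in it at an adjusted p under 0.05 (0.333% and 0.101%, or 0.434% in either direction). All 60 had the same sign in both pairs, and in 55 the 2 positive libraries did not overlap the 2 negative ones. Of all genes, 15.6% lay above without overlap and 14.8% below. The calls were made on these same pairs, so their agreement is no separate evidence. Over all genes tested, the pairs agreed little. Across 13812 genes, which are not independent replicates, the D1 and D9 log2 differences correlated at Pearson's r = 0.274 and a Spearman coefficient of 0.0512, and 47.9% of genes had the same sign. An unadjusted p under 0.05 was found for 667 genes, where 690.6 would be expected with no differences. The fit used the codes as pairs. Without them 7 genes (0.0507%) were called, all higher and 6 of them among the 60 (Ackr3, Cmah, Dpp4, Duoxa1, Sema3c and Tmem100). Leaving out either day 28 library of code B4 or of B6 left 30. Leaving out a library whose code is in 1 gate only (E1, E3, E5, E2, E4 or F2) could change little and kept 58 to 60 of the 60 calls. Leaving out either library of a pair takes that pair out of the gate difference, so the 20 leave-outs are not 20 separate checks. The tests of 20 called genes passed after leaving out each of the 20 libraries in turn: Ackr3, C4b, Cd248, Cd55, Cfb, Cmah, Dpp4, Efhd1, Gfpt2, Lbp, Lrrn4cl, Ly6a, Ly6c1, Notch3, Pi16, Scara5, Sema3c, Thy1, Tmem100 and Ugdh.

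**Figure D1:**
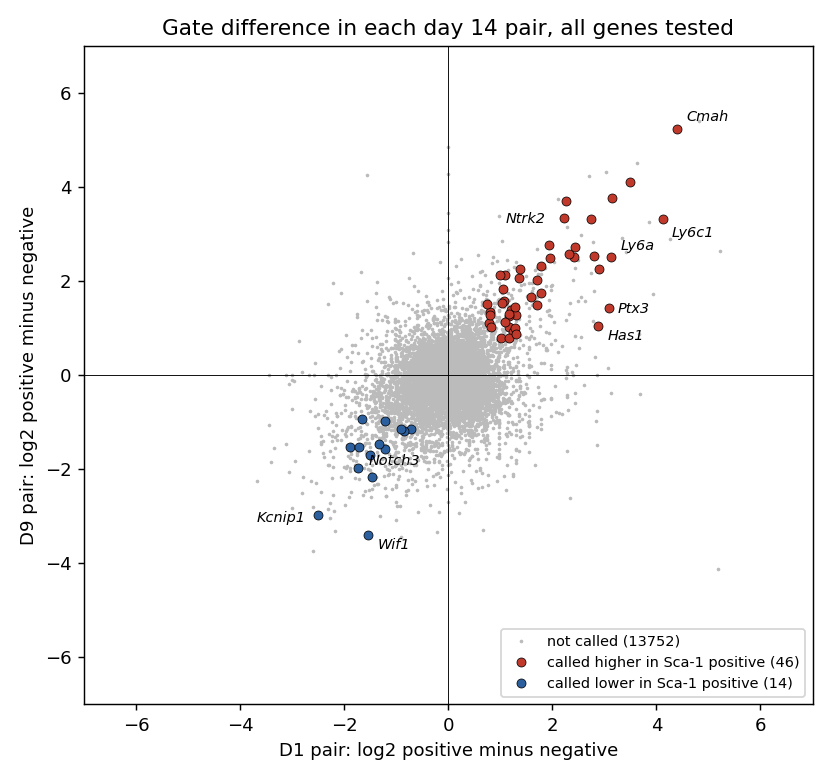
Each point is 1 of the 13812 genes tested. The x axis is the log2 difference, positive minus negative, in the D1 pair and the y axis that in the D9 pair. The 46 genes called higher (red) all lie at the upper right and the 14 called lower (blue) in the lower left. The uncalled genes (grey) form a cloud around 0.

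Some genes of surface proteins that mark stromal and progenitor cells were higher in the positive gate. Of 10 tested genes in the list of SCA-1 and related surface proteins, 4 were called higher (Ly6a, Ly6c1, Thy1 and Cd34) and none lower, beside 0.333% of all genes, and 2 had a log2 difference below 0. Ly6a encodes the protein used for the sort, so its call follows from the gate and is no evidence about the list. Without the pairs none of the 10 was called. Ly6c1, a paralog that lies near Ly6a on chromosome 15, stood at 200, 11.3, 134 and 13.4 CPM, a log2 difference of 3.72 ± 0.27 (adjusted p = 1.70e-04). Reads of related Ly6 genes may be shared in counting, so part of either value is uncertain. Thy1, a surface glycoprotein of many fibroblasts, stood at 93.7, 28.8, 198 and 70.7 CPM (1.59 ± 0.17, adjusted p = 0.00125). Cd34, a sialomucin of stromal and blood progenitors, was at 1780, 1041, 2598 and 1203 CPM (0.94 ± 0.18, adjusted p = 0.0471), and its call was also lost after leaving out a library of code F3, A6, B7, D9, B4 or B6. The related Ly6e was at 638, 389, 608 and 387 CPM and missed the threshold (0.68 ± 0.16, adjusted p = 0.121). Itgb1, Eng and Cd44, which most fibroblasts carry, did not pass the test.

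The list of adventitial progenitor genes held the most calls. Of 31 tested, 15 were called higher (48.4%, beside 0.333% of all genes) and none lower. All 31 had a log2 difference above 0, and in 28 the positive libraries did not overlap the negative ones (15.6% of all genes did so in that direction). The list's median log2 difference was 1.09, with 1.12 in D1 and 1.28 in D9, where the median of all genes was -0.000494. Without the pairs 4 of the 31 were called, and without a day 28 library of code B4 or B6 there were 10. The direction of the list is no independent evidence, since such genes are known from SCA-1 positive cells and were listed with earlier results of these data known.

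Within it, Dpp4, the surface dipeptidyl peptidase that marks progenitor-like fibroblasts, stood at 59.5, 8.75, 92.6 and 9.20 CPM. Its log2 difference was 3.06 ± 0.38 (adjusted p = 0.00462), and the gates were far apart in both pairs. Tmem100, a small membrane protein, was at 130, 18.6, 123 and 21.1 CPM (2.67 ± 0.23, adjusted p = 3.33e-04). Efhd1, a calcium-binding protein of mitochondria, was at 111, 20.6, 239 and 42.0 CPM (2.47 ± 0.28, adjusted p = 0.00208). Sema3c, a secreted guidance cue, was at 241, 62.2, 448 and 79.7 CPM (2.23 ± 0.20, adjusted p = 5.70e-04). In each of these the positive library was above the negative one in both pairs, with no overlap of the gates. Cd248, the surface protein endosialin, stood at 653, 250, 1051 and 220 CPM, a log2 difference of 1.82 ± 0.22. Pi16, a peptidase inhibitor that defines a fibroblast class found in many tissues, stood at 1901, 773, 2247 and 927 CPM, a log2 difference of 1.29 ± 0.17 with 1.30 in D1 and 1.28 in D9.

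Other called members had log2 differences under that of Cd248. Scara5, a scavenger receptor for ferritin, stood at 418, 202, 554 and 155 CPM (1.44 ± 0.20). Pla1a, a phospholipase for phosphatidylserine, was at 342, 162, 312 and 105 CPM (1.33 ± 0.21). Clec3b, which encodes tetranectin, was at 700, 283, 1053 and 575 CPM (1.09 ± 0.18), with 1.31 in D1 and 0.87 in D9. Il33, a nuclear alarmin of stromal cells, was at 317, 157, 174 and 100.4 CPM (0.90 ± 0.15), and Anxa3, a phospholipid-binding annexin, at 194, 86.1, 150 and 86.1 CPM (0.98 ± 0.18). Mfap5, a microfibril protein often used to name the same cells, was at 1878, 1198, 1609 and 1205 CPM and was not called (0.53 ± 0.17, adjusted p = 0.475). Emilin2 (1.44 ± 0.28, adjusted p = 0.0558) and Pcolce2 (0.85 ± 0.17, adjusted p = 0.0606) were just outside the threshold.

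**Figure D2:**
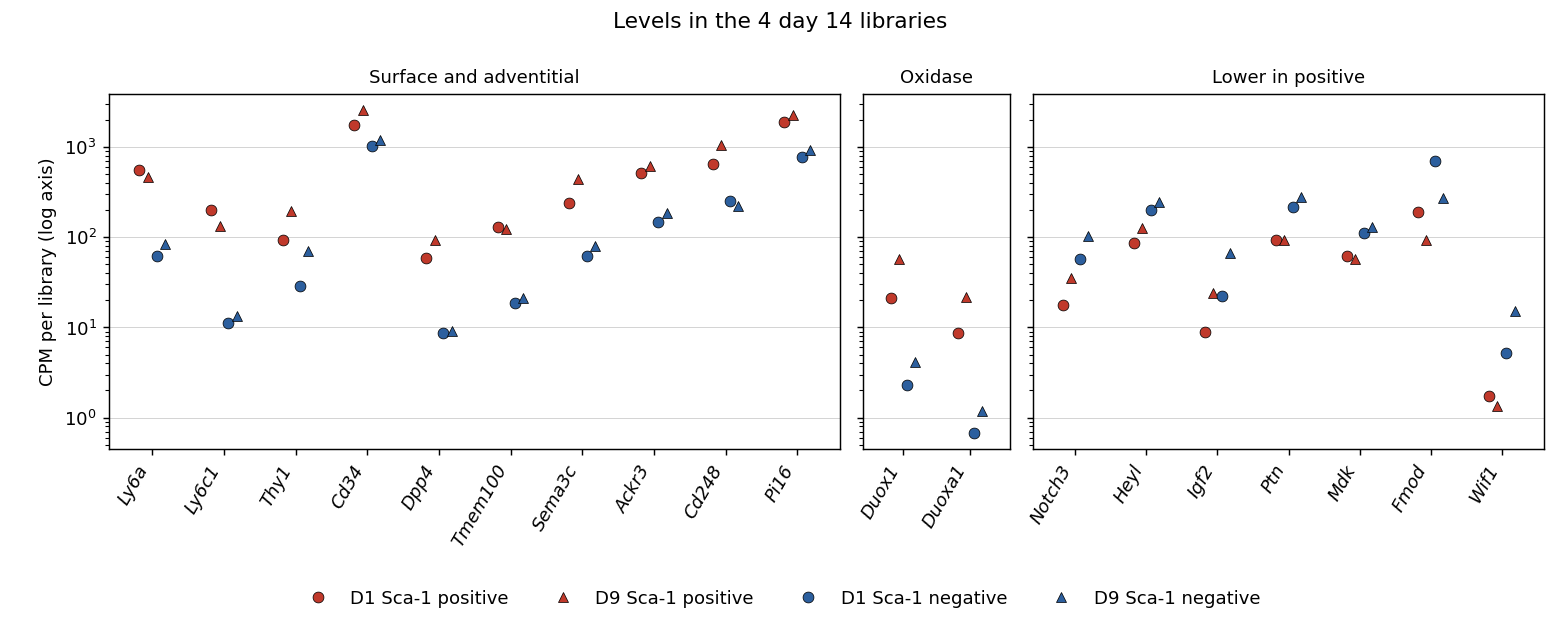
CPM of 19 genes on a log axis, 1 point per library, with circles for D1, triangles for D9, red for SCA-1 positive and blue for SCA-1 negative. The red points lie above the blue ones for the 12 genes of the left and middle panels. In the right panel red lies below blue in both pairs, and for Igf2 D9 positive (24.1 CPM) overlaps D1 negative (22.6 CPM).

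The hydrogen peroxide producing oxidase Duox1 and its maturation factor Duoxa1 were both higher in the positive gate. Duox1 stood at 21.0, 2.28, 57.5 and 4.11 CPM, a log2 difference of 3.53 ± 0.49 (adjusted p = 0.00782; DESeq2 gave an adjusted p of 0.0606). Duoxa1 stood at 8.69, 0.673, 21.98 and 1.18 CPM, a log2 difference of 3.97 ± 0.64 (adjusted p = 0.0175). In both genes the D9 libraries were above the D1 library of the same gate. They were the only calls among 8 tested genes of the DUOX and NOX oxidase list (0.333% of all genes were called higher). Without either D9 library neither was called, and without the pairs Duoxa1 was and Duox1 was not. Nox4, the oxidase that fibroblasts commonly carry, was at 81.9, 79.0, 54.2 and 48.2 CPM and did not pass. The 2 genes lie head to head, 1942 bases apart on chromosome 2 by their RefSeq starts, and do not overlap in GENCODE M21. The annotation and strand setting of the counting are not given in the sources used here, so sharing of reads was not checked.

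The 250 bases before the RefSeq start of each are shown because both neighbours were higher in the positive gate (build GRCm38.p6, 5′ to 3′ on the gene's strand). Capitals mark matches, on either strand, to 4 promoter motifs. These were TATAAA, found in 12.4% of 32851 RefSeq promoter windows of this length, the CCAAT box, found in 33.8%, GGGCGG, the GC box, found in 32.7%, and TGANTCA, the AP-1 motif, found in 6.75%. Matches of different motifs did not overlap.
Duox1, chr2:122315422-122315671, plus strand: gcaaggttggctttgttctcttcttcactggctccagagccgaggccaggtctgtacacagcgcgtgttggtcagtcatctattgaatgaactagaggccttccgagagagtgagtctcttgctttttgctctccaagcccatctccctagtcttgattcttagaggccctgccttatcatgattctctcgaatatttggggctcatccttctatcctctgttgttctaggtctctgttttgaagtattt
Duoxa1, chr2:122313731-122313980, minus strand: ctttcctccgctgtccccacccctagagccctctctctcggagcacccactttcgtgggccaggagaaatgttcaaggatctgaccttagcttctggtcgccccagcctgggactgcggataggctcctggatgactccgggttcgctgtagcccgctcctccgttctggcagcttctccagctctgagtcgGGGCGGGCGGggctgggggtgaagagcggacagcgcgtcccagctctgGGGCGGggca
Duoxa1 has 3 GC boxes, the first 2 of which overlap each other, and Duox1 has none of the 4 motifs in this window.

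Genes of the complement system, the plasma proteins that tag and lyse targets, were higher in part. Of 20 tested, 4 were called higher and none lower, beside 0.333% of all genes. Cfb, factor B of the alternative pathway, stood at 323, 64.2, 104 and 17.3 CPM, a log2 difference of 2.46 ± 0.30 (adjusted p = 0.00383). The D1 pair was higher than the D9 pair in each gate, while the ratio was about the same (2.33 in D1 and 2.58 in D9 on the log2 scale). C4b, a component of the classical pathway, was at 1356, 559, 583 and 213 CPM (1.37 ± 0.18, adjusted p = 0.00672), with reads that its near-identical neighbour C4a could share. C7, of the membrane attack complex, was at 696, 347, 193 and 43.9 CPM (1.57 ± 0.29, adjusted p = 0.0415), and D9 positive was below D1 negative. Cd55, which protects cells from complement, was at 242, 108, 337 and 166 CPM (1.09 ± 0.16, adjusted p = 0.0113). The central component C3 was at 10606, 6446, 5773 and 1771 CPM and just missed (1.21 ± 0.23, adjusted p = 0.0508). The list's median log2 difference was 0.27, and without the pairs none of the 20 was called.

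Other secreted proteins of innate defence gave a mixed picture. Ptx3, a soluble pattern recognition pentraxin, stood at 215, 25.2, 110 and 41.0 CPM. Its log2 difference was 2.24 ± 0.33 (adjusted p = 0.0106), with 3.09 in D1 and 1.43 in D9. Lbp, which binds bacterial lipopolysaccharide, was at 276, 123, 170 and 70.8 CPM (1.21 ± 0.18, adjusted p = 0.00963). Ptx3 was the 1 call among 18 inflammatory mediators (0.333% of all genes were called higher). Tnfaip6, a hyaluronan-binding protein, was at 642, 141, 228 and 149 CPM (1.40 ± 0.29, adjusted p = 0.065). Saa3, an acute phase protein, ran the other way at 256, 747, 14.8 and 59.6 CPM (-1.77 ± 0.41, adjusted p = 0.128). Il6 was at 125, 48.8, 73.5 and 100.1 CPM, with opposite signs in the 2 pairs.

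Atypical chemokine receptors, which bind and internalize chemokines without classical signalling, provided both calls among 20 chemokines and scavenging receptors (0.333% of all genes were called higher). Ackr3, the scavenger of CXCL12, stood at 515, 149, 625 and 186 CPM (1.77 ± 0.18, adjusted p = 0.00125), with 1.78 in D1 and 1.75 in D9. Ackr2, the scavenger of inflammatory CC chemokines, stood at 29.4, 7.66, 54.1 and 7.85 CPM (2.38 ± 0.31, adjusted p = 0.006). Cxcl12 itself was at 529, 272, 316 and 187 CPM (0.86 ± 0.24, adjusted p = 0.302). Ccl11 (1.69 ± 0.33, adjusted p = 0.0541) and Ccl7 (1.23 ± 0.24, adjusted p = 0.0567) were just outside the threshold. The list's median log2 difference was 1.11 in D1 and -0.01 in D9.

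Interferon response genes were slightly above the negative gate as a list, and none was called. Of 34 tested, 33 had a log2 difference above 0 (49.7% of all genes did). In 18 the positive libraries were above the negative ones (15.6% of all genes did so). The median was 0.41, with 0.67 in D1 and 0.22 in D9. B2m, the light chain of class I molecules, was at 1670, 1056, 1399 and 1020 CPM (0.56 ± 0.16, adjusted p = 0.299). Irf7 was at 49.2, 24.8, 35.9 and 24.0 CPM (0.79 ± 0.27, adjusted p = 0.539). At an unadjusted p under 0.05 edgeR held 6 of the 34. At an adjusted p under 0.05 DESeq2 called 1 and limma-voom 0. Ifi205, an interferon-inducible gene outside the list with near-identical relatives, was called (125, 71.7, 71.6 and 28.3 CPM, 1.07 ± 0.19, adjusted p = 0.0374).

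Several enzymes that make hyaluronan and its nucleotide sugar precursors were higher in the positive gate. Hyaluronan, a large sugar polymer of the matrix, is built at the cell surface from UDP-glucuronate and UDP-N-acetylglucosamine. Of its genes 4 were called, and the remaining genes of the route were added after these calls were seen, so the group has no test. Of the 10 genes, 4 were called higher and none lower (0.333% of all genes were called higher), and 8 had a log2 difference above 0 (49.7% of all genes did). Without the pairs none of the 4 was called, and without a library of code F3, D1, B4 or B6 Uap1 and Has1 were not.

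On the amino sugar branch, Gfpt2, a rate-limiting amidotransferase of the hexosamine pathway, stood at 728, 314, 764 and 292 CPM (1.30 ± 0.19, adjusted p = 0.00963). Its sister Gfpt1 was at 92.9, 124, 106 and 89.9 CPM, with no shared direction between the pairs. Gnpnat1 (0.49 ± 0.30) and Pgm3 (0.16 ± 0.22), the next steps, were not called. Uap1, which makes UDP-N-acetylglucosamine, stood at 303, 128, 249 and 132 CPM (1.08 ± 0.20, adjusted p = 0.0444). On the other branch, Ugp2, which makes UDP-glucose, was at 371, 174, 341 and 215 CPM (0.88 ± 0.19, adjusted p = 0.0953). Ugdh, which oxidizes it to UDP-glucuronate, was at 274, 129, 255 and 117 CPM, a log2 difference of 1.11 ± 0.15 (adjusted p = 0.00865) with 1.09 in D1 and 1.12 in D9. Of the synthases, Has1 was at 135, 18.2, 93.9 and 45.2 CPM (1.94 ± 0.35, adjusted p = 0.0374), with 2.89 in D1 and 1.05 in D9. Has2 was at 55.5, 22.6, 70.4 and 30.4 CPM (1.25 ± 0.25, adjusted p = 0.0546), and Has3 was under 1 CPM in all 4 libraries.

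The windows before the RefSeq starts of the 4 called genes of this route are shown because all 4 genes were higher in the positive gate, drawn and marked in the same way as those of the oxidase genes.
Gfpt2, chr11:49793905-49794154, plus strand: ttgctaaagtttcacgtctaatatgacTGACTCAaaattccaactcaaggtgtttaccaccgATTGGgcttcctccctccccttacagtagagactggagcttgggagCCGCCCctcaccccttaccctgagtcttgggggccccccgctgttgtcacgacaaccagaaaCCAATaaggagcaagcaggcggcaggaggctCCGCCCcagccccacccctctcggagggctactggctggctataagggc
Uap1, chr1:170174965-170175214, minus strand: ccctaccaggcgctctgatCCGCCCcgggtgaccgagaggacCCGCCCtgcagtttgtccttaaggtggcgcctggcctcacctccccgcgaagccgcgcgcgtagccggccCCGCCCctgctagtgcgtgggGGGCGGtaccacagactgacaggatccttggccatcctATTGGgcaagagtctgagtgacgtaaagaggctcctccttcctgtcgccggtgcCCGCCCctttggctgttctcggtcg
Ugdh, chr5:65435843-65436092, minus strand: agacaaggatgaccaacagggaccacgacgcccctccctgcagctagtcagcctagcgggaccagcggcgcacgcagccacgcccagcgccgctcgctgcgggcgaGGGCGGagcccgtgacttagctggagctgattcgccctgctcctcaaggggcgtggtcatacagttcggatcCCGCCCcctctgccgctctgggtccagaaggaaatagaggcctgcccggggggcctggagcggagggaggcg
Has1, chr17:17855189-17855438, minus strand: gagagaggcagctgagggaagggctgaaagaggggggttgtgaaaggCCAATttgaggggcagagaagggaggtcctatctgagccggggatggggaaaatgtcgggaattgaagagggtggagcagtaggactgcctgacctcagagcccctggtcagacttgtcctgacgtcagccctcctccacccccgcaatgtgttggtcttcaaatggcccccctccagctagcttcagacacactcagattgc
Gfpt2 has an AP-1 match together with CCAAT and GC boxes, Uap1 has 5 GC boxes and a CCAAT box, Ugdh has 2 GC boxes and Has1 has a single CCAAT box. No motif of the 4 occurs in all of them.

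**Figure D3:**
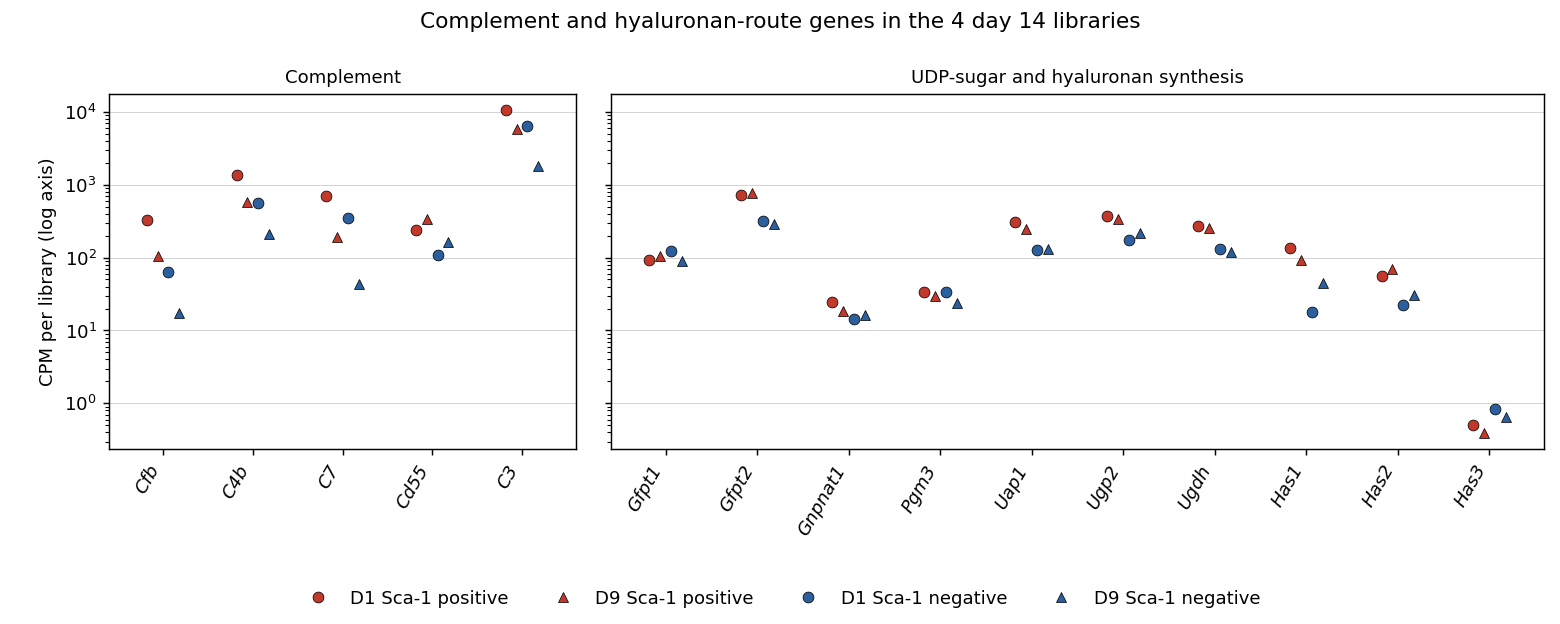
CPM of 5 complement genes and of 10 genes of UDP-sugar and hyaluronan synthesis, on a log axis, 1 point per library (circles D1, triangles D9, red SCA-1 positive, blue SCA-1 negative). For Gfpt2, Uap1, Ugdh, Has1 and Has2 red lies above blue, while the points of Gfpt1 and Pgm3 mix.

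Growth factors and receptors were called in both directions. Gdf10, a ligand of the TGF-beta superfamily, stood at 50.3, 19.6, 101 and 23.8 CPM, a log2 difference of 1.73 ± 0.22 (adjusted p = 0.00517). It was the 1 call among 35 tested genes of the TGF-beta and BMP pathways (0.333% of all genes were called higher). Nbl1, a secreted BMP antagonist, was at 398, 225, 487 and 239 CPM (0.93 ± 0.15, adjusted p = 0.0175), and Bmp4 was at 63.2, 108, 58.4 and 97.4 CPM (-0.76 ± 0.15, adjusted p = 0.0606). A pair of neurotrophic receptor tyrosine kinases were higher. Ntrk2, the receptor of BDNF, stood at 23.1, 4.87, 51.0 and 4.92 CPM (2.83 ± 0.44, adjusted p = 0.0159). Ret, the signalling receptor of the GDNF family, stood at 95.5, 57.4, 159 and 55.3 CPM (1.13 ± 0.19, adjusted p = 0.0291), while its co-receptor Gfra1 was at 94.7, 176, 98.1 and 144 CPM (-0.72 ± 0.18, adjusted p = 0.173).

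Among growth factors 3 were lower in SCA-1 positive cells, the only calls among 34 tested PDGF, FGF and IGF genes (0.101% of all genes were called lower). Ptn and Mdk, pleiotrophin and midkine, form a small family of heparin-binding factors. Ptn stood at 93.9, 218, 92.7 and 277 CPM (-1.40 ± 0.25, adjusted p = 0.0338) and Mdk at 61.7, 111, 56.8 and 130 CPM (-1.02 ± 0.18, adjusted p = 0.0343). The gates did not overlap in either. Igf2, insulin-like growth factor 2, stood at 8.84, 22.6, 24.1 and 67.0 CPM (-1.42 ± 0.25, adjusted p = 0.0332), lower within each pair although the gates overlap across pairs. None of the 34 was called lower without the pairs, without a library of code D9, or without one of B4 or B6, and 1 was without a library of code D1 or F3.

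The Notch receptor Notch3 and the target gene Heyl were lower in the positive gate. Notch receptors are cut after contact with ligands on neighbouring cells and then switch on genes of the Hes and Hey families. Notch3 stood at 17.6, 57.9, 35.4 and 102 CPM, a log2 difference of -1.62 ± 0.21 (adjusted p = 0.00517) with -1.71 in D1 and -1.53 in D9. Heyl stood at 85.7, 199.8, 127 and 249.5 CPM (-1.10 ± 0.18, adjusted p = 0.0175). They were the calls among 14 tested Notch genes (0.101% of all genes were called lower). Of the 14, 12 had a log2 difference below 0 (50.3% of all genes did), 7 of them in both pairs (3404 of all 13812 genes were). Notch1 was at 29.2, 54.7, 53.7 and 64.3 CPM (-0.58 ± 0.23), and Hey1 at 4.62, 7.25, 6.02 and 11.7 CPM (-0.81 ± 0.40), neither of them called. Notch3 also marks mural cells, the pericytes and smooth muscle of vessels. Of 15 tested mural markers it was the 1 call (0.101% of all genes were called lower) and 14 had a log2 difference below 0 (50.3% of all genes did). Their summed level was 810 and 1094 CPM in D1 positive and negative, and 652 and 651 CPM in D9, and their part in the Notch3 value was not tested. The defining mural gene Rgs5 was at 5.13, 8.65, 4.29 and 5.75 CPM, and Kcnj8 at 9.91, 8.13, 7.68 and 10.6 CPM, so the gates overlapped for Kcnj8 while both positive libraries lay below both negative ones for Rgs5 (log2 -0.58 ± 0.61, not called). Without the pairs, neither Notch gene was called.

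Genes of cartilage-like and mature scar matrix had levels below those of the negative gate in part. Of 24 tested genes in the matrifibrocyte and cartilage-like list, 1 was called lower (0.101% of all genes were), and in 11 the positive libraries lay below the negative ones (14.8% of all genes did). The median log2 difference was -0.59, with -0.81 in D1 and -0.54 in D9. The 4 day 14 libraries alone gave 9 lower calls among 23 tested. That fit has 1 residual degree of freedom and many more calls among all genes. Fmod, fibromodulin, a proteoglycan that binds collagen fibrils, stood at 189, 702, 94.5 and 275 CPM (-1.72 ± 0.32, adjusted p = 0.0426). Cilp2, a cartilage intermediate layer protein, was at 7.42, 52.7, 3.94 and 22.8 CPM (-2.68 ± 0.53, adjusted p = 0.0543). Chad, chondroadherin, was at 3.66, 17.2, 0.948 and 7.73 CPM (-2.62 ± 0.60, adjusted p = 0.121), and Scx, a tendon transcription factor, at 4.57, 15.4, 2.12 and 10.2 CPM (-2.01 ± 0.61, adjusted p = 0.369). Comp was at 823, 1003, 272 and 316 CPM and differed little between the gates.

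The main scar collagens did not differ in a shared direction. Col1a1 stood at 18819, 25300, 15279 and 12195 CPM, lower in the positive gate of D1 and higher in that of D9 (log2 -0.05 ± 0.20). Postn, the matricellular protein periostin, behaved likewise at 3843, 4878, 3178 and 2531 CPM (log2 -0.01 ± 0.38). In the fit of all 20 libraries edgeR called none of 11 fibrillar collagens, and 3 had an unadjusted p under 0.05. DESeq2 called 0 and limma-voom 2. The median of the 11 was -0.50 in D1 and 0.19 in D9. The cell cycle list split in the same way, with a median of -0.50 in D1 and 0.43 in D9. It gave no call among 31 in edgeR, where 1 had an unadjusted p under 0.05. DESeq2 called 1 of the 31 and limma-voom 0. Acta2, the smooth muscle actin of myofibroblasts, was at 130, 259, 67.5 and 62.7 CPM (log2 -0.44 ± 0.25). The 24 contractile and activation genes gave no call in edgeR (6 at an unadjusted p under 0.05, 1 by DESeq2 and 2 by limma-voom). Of them 20 were below 0 (50.3% of all genes were), with a median of -0.55 in D1 and -0.09 in D9. These lists had medians that differed between the pairs, which also differ in sex-linked transcripts and depth, and the part of either was not tested.

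Other matrix and Wnt genes gave single calls. Efemp1, fibulin 3, stood at 215, 101, 190 and 43.1 CPM (1.61 ± 0.24, adjusted p = 0.0113), the 1 call among 15 elastic fibre genes (0.333% of all genes were called higher). Plau, the urokinase that activates plasminogen, was at 136, 77.8, 52.5 and 21.5 CPM (1.05 ± 0.17, adjusted p = 0.0175), higher within each pair with overlap across pairs. Lamc3, a laminin chain, was lower at 7.37, 24.8, 2.12 and 8.601 CPM (-1.88 ± 0.34, adjusted p = 0.0386). Itga8, the alpha 8 integrin, was lower at 9.76, 31.0, 29.3 and 55.8 CPM (-1.28 ± 0.23, adjusted p = 0.0391). Wif1, a secreted Wnt inhibitor, was lower at 1.73, 5.23, 1.34 and 15.1 CPM (-2.66 ± 0.48, adjusted p = 0.0386), with -1.54 in D1 and -3.40 in D9. Wnt10b, a Wnt ligand, was at 8.33, 1.40, 14.98 and 2.66 CPM and just missed (2.53 ± 0.49, adjusted p = 0.0508).

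The remaining calls fell outside the lists. The largest log2 difference of all calls was that of Cmah, the enzyme that makes the sialic acid N-glycolylneuraminic acid. It stood at 29.5, 1.29, 30.8 and 0.714 CPM, a difference of 4.98 ± 0.54 (adjusted p = 0.00175). Cadm3, a cell adhesion molecule, was at 56.2, 11.6, 100.3 and 7.66 CPM (3.01 ± 0.56, adjusted p = 0.0457; DESeq2 gave an adjusted p of 0.612). Mcf2l was at 8.28, 1.45, 11.7 and 1.70 CPM (2.66 ± 0.50), and Arhgap20 at 36.0, 10.4, 44.6 and 8.91 CPM (2.07 ± 0.30). Car8, a carbonic anhydrase relative, was at 21.8, 2.85, 28.6 and 5.94 CPM (2.57 ± 0.43). Lrrn4cl was at 223, 74.0, 190 and 60.3 CPM (1.62 ± 0.16). The other higher genes were Aif1l (1.89), Lims2 (1.29), Htra4 (1.23) and Lgi4 (1.13, a log2 difference as for the others).

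On the lower side, Kcnip1, a potassium channel interacting protein, had the largest difference at 1.17, 7.15, 1.30 and 10.95 CPM (-2.86 ± 0.41, adjusted p = 0.00945). Blnk, an adaptor known from B cells, was at 5.54, 16.0, 3.09 and 10.3 CPM (-1.63 ± 0.28). The 14 lymphoid and erythroid markers summed to 6.81, 11.2, 1.57 and 2.70 CPM, and 13 of them were under 1 CPM in all 4 libraries. Art4, a surface ADP-ribosyltransferase family member, was at 38.5, 72.6, 33.8 and 75.4 CPM (-1.04 ± 0.19). Hsd11b1, which regenerates active glucocorticoid, was at 153, 250.1, 43.6 and 96.9 CPM (-0.93 ± 0.18), lower within each pair with overlap across pairs. Gm4956 (-1.87), annotated in GENCODE M21 as a transcribed unprocessed pseudogene, completed the 14.

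Markers of the heart's outer lining had log2 differences mostly below 0, and none passed the test in the fit of all 20 libraries. Of 18 tested epicardial and mesothelial markers 14 had a log2 difference below 0 (50.3% of all genes did), and the median was -0.96 (-0.91 in D1 and -0.97 in D9). At an unadjusted p under 0.05 there were 7. At an adjusted p under 0.05, DESeq2 called 1 member higher and 1 lower, and limma-voom 1 higher and 4 lower. With the 4 day 14 libraries alone, edgeR called 10 of 19 lower and 0 higher. That fit has 1 residual degree of freedom and called many more of all genes. Upk3b, a mesothelial uroplakin, was at 12.9, 37.6, 1.92 and 10.9 CPM (-2.02 ± 0.48, adjusted p = 0.195). Wt1, the epicardial transcription factor, was at 53.1, 91.9, 17.6 and 31.3 CPM (-0.81 ± 0.55). Krt19 was at 3.35, 22.1, 2.39 and 7.54 CPM (-2.18 ± 0.77). Leaving out C3, which fibroblasts also express, the list summed to 483, 715, 467 and 436 CPM. The part of such cells in the lower calls was not tested.

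**Figure D4:**
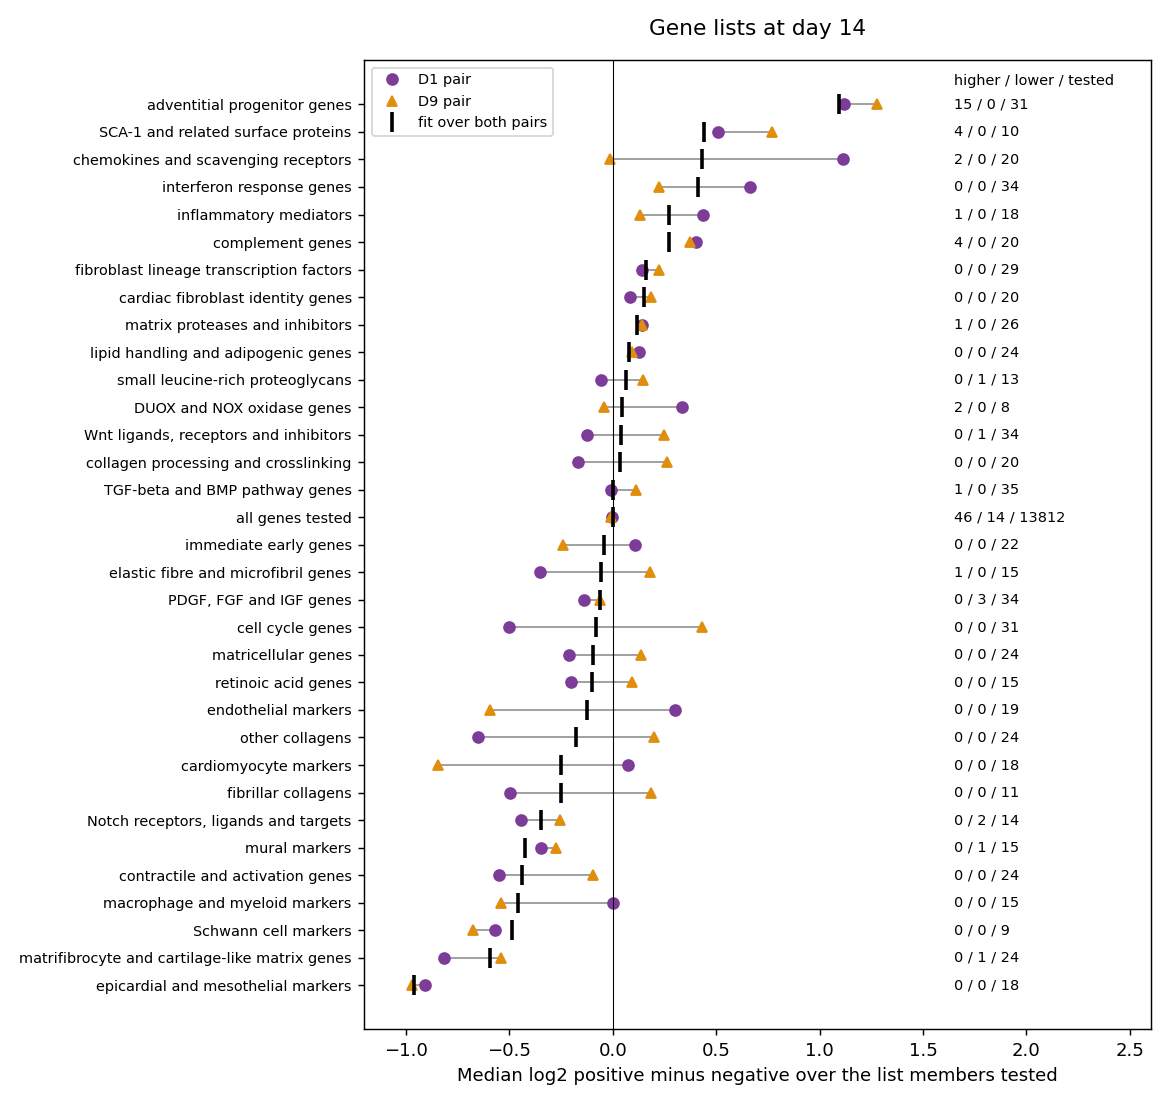
Median log2 difference, positive minus negative, over the tested members of each list, with circles for the D1 pair, triangles for D9 and a bar for the fit over both. The lymphoid and erythroid list (2 tested) and the sex-linked transcripts are left out, and all genes tested form a further row. Figures at the right are members called higher, called lower and tested. Adventitial genes stand at the top (1.09) and epicardial and mesothelial markers at the bottom (-0.96), while collagens and cell cycle genes have circles and triangles on opposite sides of 0.

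Most calls at day 14 were also seen at the other times. Of the 46 higher genes, 42 had the same sign in undamaged hearts and 43 at day 28. The same test called 37 of them higher in undamaged hearts and 28 at day 28. All 14 lower genes had the same sign at both times, and 14 and 9 were called. For Wif1 at day 28 the value was -0.53 ± 1.46, from levels of at most 0.455 CPM, so its sign there is uncertain. In the background the gates differed in 4.19% of genes in undamaged hearts and 0.717% at day 28, in groups of other sizes, so counts are not comparable between times. Ly6c1 had log2 differences of 3.35, 3.72 and 4.17 in undamaged hearts, at day 14 and at day 28, and Notch3 of -1.87, -1.62 and -2.30.

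The difference between times was tested as an interaction of gate and time. Against undamaged hearts 2 genes passed (0.0145% of those tested) and 536 had an unadjusted p under 0.05. Ntrk2 was higher in the positive gate at day 14 and lower in it in undamaged hearts, where the positive libraries held 3.46 to 17.7 CPM and the negative ones 20.2 to 43.8 CPM (log2 -1.54). Its log2 difference at day 14 minus that in undamaged hearts was 4.37 ± 0.56 (adjusted p = 0.0377). Nov, the matricellular protein now called CCN3, was at 160, 159, 170 and 89.9 CPM at day 14, a log2 difference of 0.47 ± 0.21. In undamaged hearts it held 44.0 to 90.6 CPM in the positive and 6.58 to 16.1 CPM in the negative gate (log2 2.84), and the interaction was -2.38 ± 0.29 (adjusted p = 0.0377). The undamaged log2 values of Ntrk2 and Nov rest on the codes present in both gates, while the CPM ranges cover all undamaged libraries. Both calls were lost without the pairs (adjusted p of 0.21 for Ntrk2 and 1.00 for Nov) and after leaving out a library of code F3, A6, B4 or B6, either gate. Without a day 14 library of code D9 the Ntrk2 call was lost (0.0589 to 0.0623) and the Nov call was not.

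Against day 28 no gene passed in edgeR (0% of those tested). An unadjusted p under 0.05 was found for 293 genes, and DESeq2 called 11 and limma-voom 6. Ntrk2 at day 28 was at 12.4 to 19.8 CPM in the positive and 9.19 to 27.1 CPM in the negative gate, and its interaction was 3.24 ± 0.60 (adjusted p = 0.372).

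Of the 46 higher genes 7 were called higher at neither of the other times: C4b, Clec3b, Efemp1, Gdf10, Ifi205, Ntrk2 and Plau. Ntrk2 was called lower in undamaged hearts. None of the other 6 passed the interaction test, so they are not shown to differ between times. C4b came nearest, with log2 differences of -0.08 in undamaged hearts and -0.27 at day 28 beside 1.37 at day 14. Its interactions were 1.45 ± 0.23 against undamaged hearts (adjusted p = 0.104) and 1.63 ± 0.26 against day 28 (adjusted p = 0.126). C4b levels varied widely in undamaged hearts, from 191 to 2189 CPM in the positive gate. Codes A6 and B7, whose titles carry a further prefix, held 191 to 253 CPM over both gates. The other undamaged libraries held 1039 to 2189 CPM. Plau had log2 differences of -0.28 and -0.01 at the other times and an interaction of 1.32 ± 0.21 against undamaged hearts (adjusted p = 0.104). For Gdf10 the log2 differences were 0.64 and 0.68, for Efemp1 0.17 and 0.59, for Clec3b 0.52 and 0.50, and for Ifi205 -0.04 and 0.39.

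**Figure D5:**
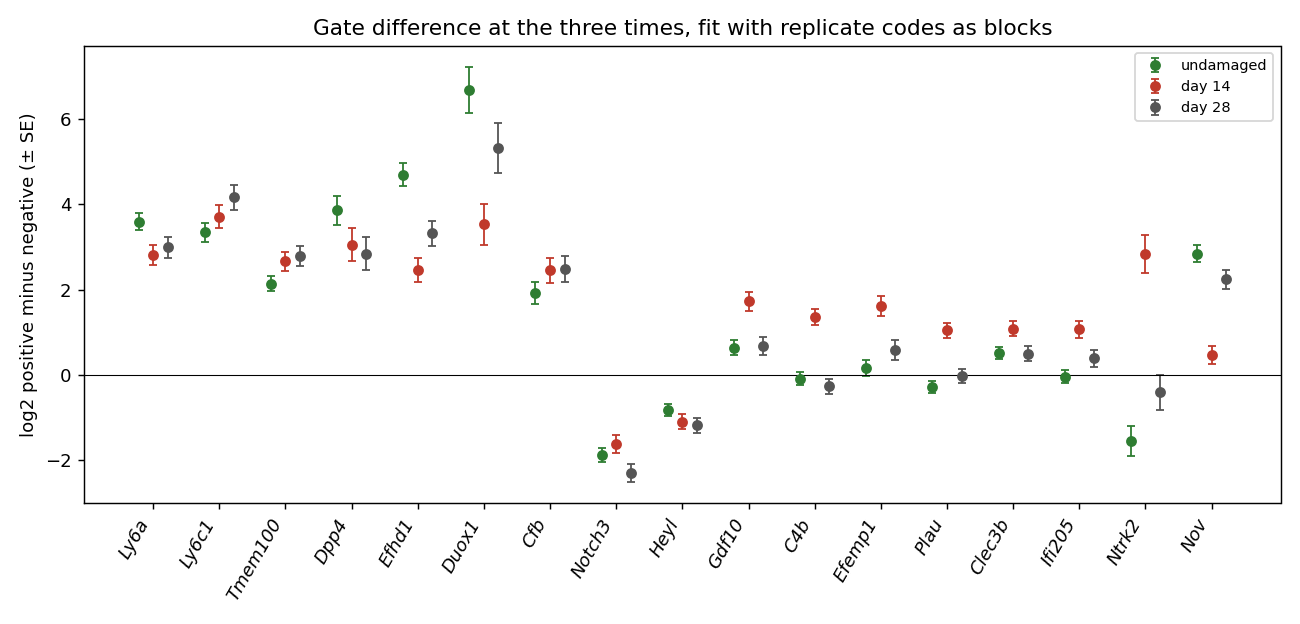
Log2 difference, positive minus negative, with its standard error for 17 genes in undamaged hearts (green), at day 14 (red) and at day 28 (grey), from 1 fit. Ly6a, Ly6c1, Tmem100 and Dpp4 are above 2 at all times and Notch3 and Heyl below 0. Ntrk2 is above 0 at day 14 alone, and Nov is near 0 at day 14 and above 2 at the other times.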

How the data were processed

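RNA of sorted cells was turned into stranded mRNA libraries and read from both ends, per the labels' protocols. The deposited values are counts, whole reads per gene and library, for 24421 gene symbols and 2 entries that name no gene, which were left out of totals and tests (0.128% to 0.646% of reads were shared by several genes; shares outside genes are given for day 14 in the report, and were 55.8% in the day 28 SCA-1 positive library E2). The submitters' processing notes name mm10 and, in no stated order, STAR, TopHat with Bowtie2, Cufflinks and bcl2fastq. The counting program, its annotation and strand setting are not given in the sources used here. Of the symbols, 23336 (95.6%) were found in GENCODE M21. Counts without molecular identifiers include PCR copies. Promoter sequences are RefSeq's (GRCm38.p6), present for 38 of the 60 called genes.

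Counts of 20 libraries in 6 groups were fitted in R 4.3.3 with edgeR 4.0.16: filterByExpr (13812 genes kept), TMM factors, a quasi-likelihood fit with the replicate code as a block (4 residual and 7.83 prior degrees of freedom) and 1 gate term per time, two-sided tests, and Benjamini-Hochberg adjustment over all genes tested with a threshold of 0.05. The 6 day 7 libraries were left out. Codes come from the titles. In 7 pairs same-coded libraries deviated together (correlations of 0.184 to 0.412 after removing group means). Among the negative libraries of its time, each paired positive library correlated best with that of its own code (at day 14, with 2 libraries a gate, this value is mirrored). The labels do not tie codes to animals, so p-values measure the spread between these libraries. Values in a single pair are log2 CPM differences with edgeR's default prior count. Alternatives used DESeq2 1.42.0 and limma 3.58.1 (voom), another scaling, no filter, fewer libraries, thinned D9 libraries and each library left out.

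Members and gene lists were chosen with earlier results of these data known. Genes named are 33 anchors, up to 15 per direction with the largest difference among calls (mean log2 CPM 1 or more, gates without overlap, predicted genes left out), and up to 4 per list with the smallest p. Calls outside this rule, the hyaluronan group, and Gfra1, Hey1, Gfpt1, Gnpnat1, Pgm3, Has2, Has3, Nov and Kcnj8 were chosen after their values were seen.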

Additional observations from a re-analysis of the deposited data

Results flagged for a closer look

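Ntrk2 and Nov had gate differences at day 14 that differed from those in undamaged hearts by the interaction test, 4.37 for Ntrk2 and -2.38 for Nov on the log2 scale. For Ntrk2 the interaction was 3.91 without an undamaged library of code B7 and 3.78 to 4.92 over all single libraries left out, and DESeq2 gave 4.37 with no adjusted p. For Nov it was -1.93 to -2.84 over the same fits.

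The undamaged SCA-1 positive library of code B7 stood apart for Ntrk2, at 3.46 CPM where the other 4 held 13.8 to 17.7 CPM. It was the 1 flag among 24 groups checked over 8 genes, and chance flags about 1 in 20 such groups.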

How the results depend on the processing

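The 60 calls at day 14 became 7 (7 higher) without the replicate block, 130 (90 higher) without the filter, 172 (116 higher) with DESeq2, 198 (122 higher) with limma-voom and 492 (204 higher) with the 4 day 14 libraries alone, a fit with 1 residual degree of freedom. They stayed within 1.5 times with RLE scaling (56), prefixed titles (42), paired libraries (52) and thinned D9 libraries (72). Prefixed titles carry a further label before the code, as those of A6, B7, D1, D9, B4 and B6 do. Leaving out 1 library gave 30 to 105 calls: 30 without either B4 or B6 library of day 28, 91 without undamaged positive B7, 103 and 105 without a D1 library (42 of the 60 among them), and 52 and 58 without a D9 library (28 and 29 among them), when 1 pair alone carries the day 14 value. The cause was not tested. No called gene changed sign in any of these fits.

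The 2 interaction calls against undamaged hearts became 0 without the replicate block, with prefixed titles and with paired libraries, 5 with limma-voom, 40 without the filter, 56 with DESeq2, and 0 to 12 with 1 library left out. Those against day 28 (0) were also 0 without the replicate block, 15 without the filter, 11 with DESeq2, 6 with limma-voom and 0 to 6 with 1 library left out. Without the replicate block 54 of the 60 genes lost the call, and with DESeq2 Cadm3 and Duox1 did. Signs were followed for the anchors, the calls and other genes named here, not for all genes tested. Among these, signs turned only for uncalled genes when a D1 or D9 library was left out. Their log2 differences were from -0.996 to 0.10 for Acta2, -0.43 to 0.32 for Col1a1, -0.41 to 0.23 for Gfpt1, -0.263 to 0.0682 for Hic1, -0.46 to 1.36 for Il6, -0.36 to 0.61 for Pdgfra, -0.20 to 1.52 for Pecam1, -0.0022 to 0.32 for Pgm3, -0.35 to 0.33 for Postn, -1.13 to 0.81 for Ptprc and -0.23 to 1.42 for Steap4. Each gate held 2 libraries, of 19.6 to 48.8 M counts, and thinning D9 to the depth of D1 kept all 60 calls.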

Other observations

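Of the 31 adventitial genes 7 had both day 14 SCA-1 negative libraries above all negative libraries of the other times (7.23% of all genes tested did) and none had both below them (4.86%), given here as values with no test. The 3 with a call at day 14 were Sema3c, Cd248 and Efhd1, and the rest were Fbn1, Gap43, Mfap5 and Uchl1. The day 14 negative libraries of the other 24, among them Clec3b, Scara5 and Pi16, met neither condition. Sema3c stood at 62.2 and 79.7 CPM in the day 14 negative libraries, beside 19.2 to 29.4 CPM in undamaged and 23.7 to 36.8 CPM in day 28 negative libraries. Cd248 stood at 250 and 220 CPM, beside 32.6 to 88.2 and 67.0 to 90.2 CPM. Efhd1 stood at 20.6 and 42.0 CPM, beside 3.80 to 12.2 and 8.19 to 15.7 CPM. For Ly6a the day 14 negative libraries, at 62.8 and 83.3 CPM, lay within the 19.2 to 93.7 CPM of undamaged negative libraries and above the 25.8 to 56.8 CPM of day 28.

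Saa3 and Col11a1 were lower in the positive gate of both day 14 pairs without passing the test. Saa3 in undamaged hearts was at 0.988 to 5.93 CPM in the positive and 0 to 5.79 CPM in the negative gate, beside 14.8 to 747 CPM over the 4 day 14 libraries. Col11a1, a fibrillar collagen of cartilage, was at 4.37, 47.5, 6.84 and 24.8 CPM at day 14 (log2 -2.63 ± 1.01) and under 2.74 CPM in every undamaged library. Wif1 was at most 0.455 CPM in the day 28 libraries, and at 1.34 to 15.1 CPM at day 14.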
